A study of Homo sapiens with 4 samples.

Results

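The enzymes and scaffolds that set histone acetylation were examined in an imatinib-sensitive human leukaemia line and in its resistant derivative. The set held 39 genes, found by their symbols among the 32673 genes of the expression table. It comprised 12 acetyltransferases and coactivators, 11 classical deacetylases, 7 sirtuins, 5 bromodomain proteins and 4 corepressor scaffolds. TF1-BA cells derive from the erythroleukaemia line TF1 by retroviral transfer of the BCR-ABL oncogene, and they are sensitive to imatinib, the inhibitor of the BCR-ABL kinase. TF1-BAR cells are the resistant derivative of the same model, selected by months of continuous imatinib. Each line gave 2 libraries, replicate 1 and replicate 2, each from 10000000 cells. Both lines carried BCR-ABL and were grown with the cytokine GM-CSF, for which the sample labels give 2 ng/ml and the study's methods a higher concentration. For TF1-BAR cells the labels add 2 µM imatinib to the culture. Whether imatinib was still in the medium at RNA extraction is not stated, so exposure to imatinib and resistance to it cannot be told apart. The TF1-BAR libraries are titled as vector libraries. Any effect of such a vector would be contained in the differences given here. The comparison is between a single sensitive and a single resistant line. The sources do not say whether the libraries of a line came from separate cultures, so the p-values measure only the spread between these libraries. For each gene the fit draws this spread mainly from the other genes tested.

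Acetyltransferases transfer an acetyl group from acetyl-CoA to lysines of histone tails, which loosens the contact of histones with DNA, and bromodomains bind the acetylated lysines. Classical deacetylases use zinc and sirtuins use NAD to remove the mark. Most of these enzymes act in large complexes, and corepressor scaffolds such as RCOR1, SIN3A, SIN3B and NCOR1 bring deacetylases to genes. In blood cells the CoREST complex built on RCOR1 holds LSD1 and deacetylases and works with the repressor GFI1B in erythroid and megakaryocytic cells, while CREBBP and EP300 serve as coactivators of GATA1 and other blood transcription factors.

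Expression was measured as FPKM, the number of sequenced fragments scaled to the exon length of a gene and to the mapped fragments of a library. The libraries held between 15465497 and 18042299 fragments, recovered from the steps of the values. The fragment numbers given for single genes are the smallest that the values allow, and the true number of a gene may be a multiple. Over 15519 genes tested, Pearson's r of the log2 values was 0.983 between the TF1-BA libraries and 0.979 between the TF1-BAR libraries, and 0.946 to 0.956 between the lines. All 8 markers of the TF1 line were above 0 in every library, at 1.37 to 241 FPKM. The 8 markers of T cells, B cells, monocytes, fibroblasts and epithelial cells summed to 22.8 and 24.7 FPKM in TF1-BA cells and to 10.6 and 10.9 FPKM in TF1-BAR cells, and 0 of the 8 were at 0 in all libraries. CD3D alone gave 19.2 and 20.7 FPKM of the TF1-BA sums, and CD3E was at most 0.0227 FPKM. The B cell marker CD79A went the other way, with 1.84 and 2.19 FPKM in TF1-BA cells and 3.55 and 3.15 FPKM in TF1-BAR cells. The part of these levels in the results was not tested.

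The acetylation machinery differed between the lines in a few genes and by modest amounts. RCOR1 and SIRT1 had lower RNA in TF1-BAR cells, SIN3B slightly so, while KAT2A, HDAC5, CREBBP and BRD1 had higher RNA. A gene was counted as differentially expressed where its log2 fold change was 1 or more in size and its adjusted p was under 0.05 (limma, Benjamini-Hochberg over all genes tested). Of the 39 genes, 36 had a mean of at least 0.5 FPKM and were tested. Of these, 0 passed both thresholds, where 3.05% of all genes tested did so as higher and 1.69% as lower in TF1-BAR cells. With an unadjusted p under 0.05 in place of the adjusted one, 0 members passed as well, and limma voom on the recovered fragments also gave 0. Upper-quartile scaling gave 1, RCOR1, whose log2 fold change was −1.01 there.

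By the adjusted p alone, 4 of the 36 members were higher in TF1-BAR cells, where the share among all genes tested was 16.3%. Lower were 3 members, where the share among all genes was 10.5%. The 7 called members are 19.4% of those tested, against 26.9% of all genes. In 17 members both TF1-BAR libraries lay above both TF1-BA libraries, in 10 they lay below, and in 9 the lines overlapped. Of all genes tested, 40.9% lay above and 28.4% below in this way. The libraries of the lines were thus separate in 75.0% of the members, beside 69.3% of all genes tested. The median log2 fold change was 0.09 over the members and 0.07 over all genes. After rescaling to TPM, which gives every library the same sum, the split was 8 higher and 2 lower members, with 29.0% of all genes called and their median at 0.14. Leaving out 1 library changed the calls. Without TF1-BA replicate 1, limma called 0 members and 0.928% of all genes, and without TF1-BA replicate 2 it called 0 members and 0.271%, while 6 and 5 members had an unadjusted p under 0.05. In these fits the spread came from the TF1-BAR libraries alone, the single TF1-BA library was assumed to vary like them, and no log2 fold change of a called member moved by more than 0.0708. Without TF1-BAR replicate 2 only RCOR1 was called, beside 6.62% of all genes, and without TF1-BAR replicate 1 there were 6 calls, beside 20.5% of all genes, with BRD1 and SIN3B lost and BRD2 gained. None of the 15 alternatives reversed the direction of a called member.

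**Figure D1:**
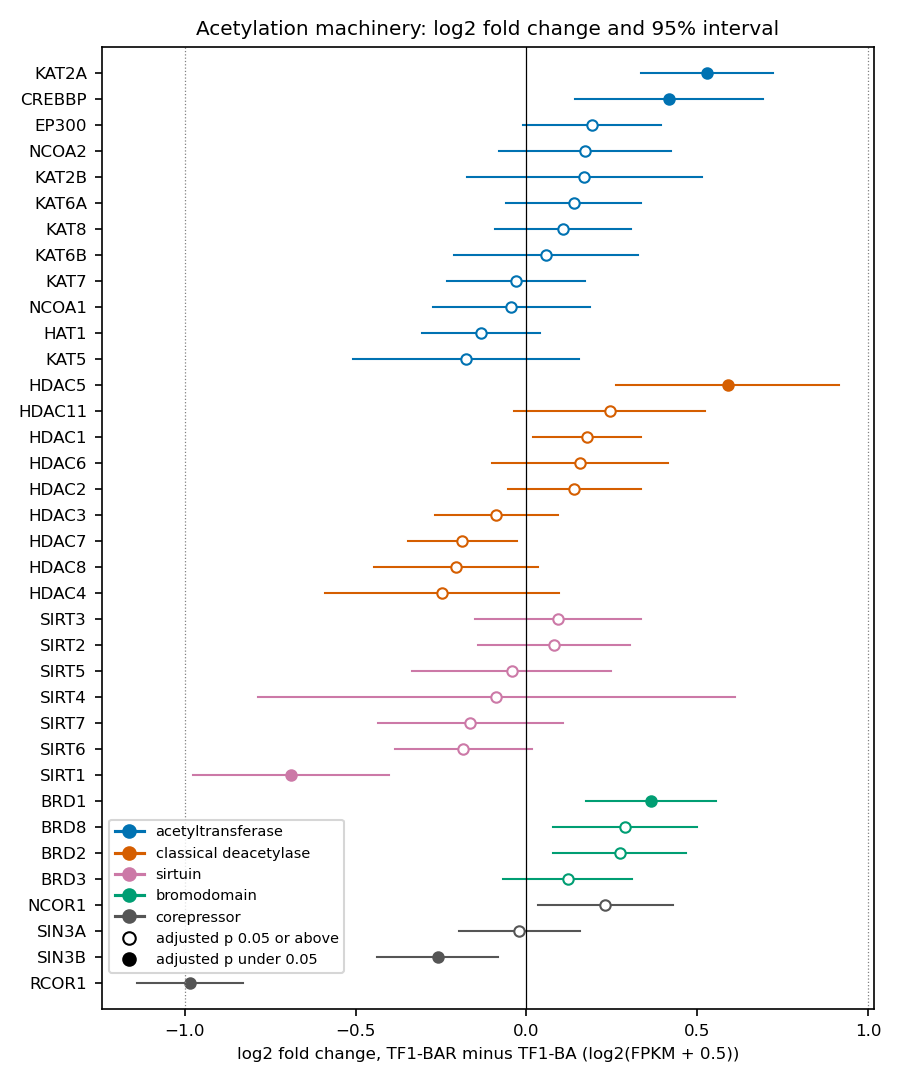
Log2 fold change (TF1-BAR minus TF1-BA, on log2(FPKM + 0.5)) of the 36 tested members, grouped by role, with 95% intervals from limma as bars and filled points for an adjusted p under 0.05. RCOR1 at −0.98 and SIRT1 at −0.69 lie farthest to the left, HDAC5 at 0.59 and KAT2A at 0.53 farthest to the right, and dotted lines mark a log2 fold change of 1 in either direction.

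The 3 members with the smallest adjusted p are RCOR1, KAT2A and SIRT1. The 250 bases before their annotated start sites are shown here as the promoters of these genes. The values are per gene, and which start sites were in use was not measured. The sequences are those of RefSeq on GRCh38.p14, read in the direction of the gene. The window of RCOR1 is chr14:102592399-102592648 on the plus strand, that of SIRT1 chr10:67884406-67884655 on the plus strand and that of KAT2A chr17:42121368-42121617 on the minus strand. Capitals mark matches on either strand to the GC box GGGCGG, the CCAAT box, the E-box CACGTG, the ETS core CCGGAA or the GATA motif AGATAA.
RCOR1: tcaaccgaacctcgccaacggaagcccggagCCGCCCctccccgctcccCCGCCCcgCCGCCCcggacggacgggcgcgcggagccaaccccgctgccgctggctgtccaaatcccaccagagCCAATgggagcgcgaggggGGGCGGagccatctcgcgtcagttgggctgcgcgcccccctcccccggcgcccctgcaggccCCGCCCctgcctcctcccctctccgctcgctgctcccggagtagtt
SIRT1: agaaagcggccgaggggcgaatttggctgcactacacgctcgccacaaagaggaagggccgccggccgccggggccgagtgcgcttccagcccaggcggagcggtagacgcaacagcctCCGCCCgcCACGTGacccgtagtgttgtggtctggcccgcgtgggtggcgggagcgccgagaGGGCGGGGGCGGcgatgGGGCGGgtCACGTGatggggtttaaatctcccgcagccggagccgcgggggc
KAT2A: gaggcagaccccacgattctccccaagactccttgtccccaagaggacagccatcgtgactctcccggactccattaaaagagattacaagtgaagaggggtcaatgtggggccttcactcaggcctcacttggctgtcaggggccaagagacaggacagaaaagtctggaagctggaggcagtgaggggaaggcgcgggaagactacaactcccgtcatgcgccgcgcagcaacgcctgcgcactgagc
The RCOR1 window had a GC content of 76.4% with 5 GC boxes and 1 CCAAT box. The SIRT1 window had 72% with 4 GC boxes, of which a pair touch, and 2 E-boxes. The KAT2A window had 58.8% and 0 matches to any of the 5 motifs. Over all 35116 windows of the same length the median GC content was 58.0%. A GC box was found in 42.6% of them, a CCAAT box in 32.0%, an E-box in 6.34%, an ETS core in 14.5% and a GATA motif in 9.17%. These matches are letters in a window and no measured binding, and 34 of the 39 members had a window.

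Corepressor scaffolds were the role with the largest difference, which was that of RCOR1 (ENSG00000089902, 102592661 to 102730576 on chromosome 14). RCOR1 is the scaffold that joins LSD1 to HDAC1 and HDAC2 in the CoREST complex. Its level was 78.1 and 74.0 FPKM in the TF1-BA libraries and 38.2 and 38.1 FPKM in the TF1-BAR libraries, from 8737, 7096, 3737 and 3799 fragments. Both TF1-BAR libraries lay far below both TF1-BA libraries, and the means were 76.0 ± 2.90 FPKM (SD, n = 2) and 38.2 ± 0.0860 FPKM (SD, n = 2), a ratio of 0.502. On the log2 scale RCOR1 fell by 0.98 (SE 0.0605, 95% interval −1.14 to −0.83, adjusted p = 0.00344, limma). Among the alternatives its log2 fold change ran from −1.02 to −0.92 and its adjusted p from 3.88e-07 to 0.0527, with 0.0525 without TF1-BA replicate 1 and 0.0527 without TF1-BA replicate 2. In RNA from a whole culture, fewer cells with the transcript and less transcript per cell cannot be told apart.

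Beside RCOR1, the other scaffolds moved little. SIN3B, like SIN3A, is a scaffold of SIN3 deacetylase complexes. SIN3B was at 24.6 and 26.2 FPKM in TF1-BA cells and 20.8 and 21.4 FPKM in TF1-BAR cells. It fell by 0.26 on the log2 scale (SE 0.0686, adjusted p = 0.0493, limma), just under the threshold, and lost the call in 10 of the 15 alternatives, with an adjusted p of up to 0.283. SIN3A was at 13.4, 13, 12.8 and 13.3 FPKM in the TF1-BA and then the TF1-BAR libraries, so the lines overlapped. NCOR1, the nuclear receptor corepressor that carries HDAC3, was at 8.23 and 8.05 FPKM in TF1-BA cells and at 9.30 and 9.98 FPKM in TF1-BAR cells. Its libraries were separate, with a log2 fold change of 0.23 and an adjusted p of 0.0843. Rescaling to TPM (adjusted p = 0.0472, limma) and voom on the recovered fragments (adjusted p = 0.0286) called NCOR1 higher. RCOR1 gave 62.8% and 61.0% of the summed FPKM of the 4 scaffolds in TF1-BA cells and 47.1% and 46.0% in TF1-BAR cells. The sum itself was 124 and 121 FPKM against 81.1 and 82.8 FPKM.

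**Figure D2:**
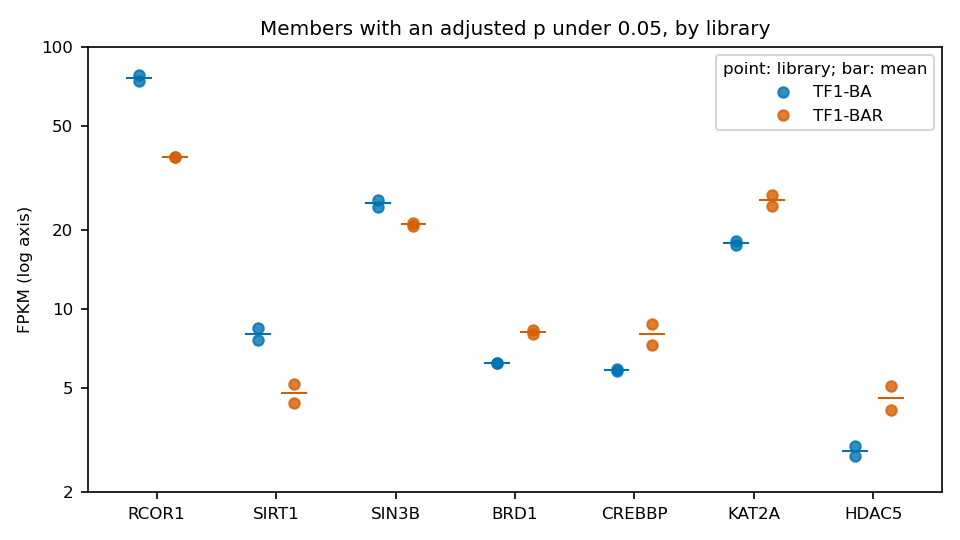
FPKM on a log axis of the 7 members with an adjusted p under 0.05, as a point for each library and a bar for the mean of the 2 libraries of a line. The TF1-BAR points lie below the TF1-BA points for RCOR1, SIRT1 and SIN3B and above them for BRD1, CREBBP, KAT2A and HDAC5, with the widest gap at RCOR1 (76.0 against 38.2 FPKM).

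SIRT1 was the sirtuin that differed. This nuclear deacetylase acts on histones and on transcription factors such as p53. SIRT1 (ENSG00000096717, 67884669 to 67918390 on chromosome 10) was at 8.45 and 7.62 FPKM in TF1-BA cells and 5.20 and 4.40 FPKM in TF1-BAR cells, from 694, 536, 373 and 322 fragments. The lines did not overlap, and the means of 8.03 ± 0.592 and 4.80 ± 0.564 FPKM (SD, n = 2 each) stood in a ratio of 0.598. SIRT1 fell by 0.69 on the log2 scale (SE 0.111, 95% interval −0.98 to −0.40, adjusted p = 0.0159, limma). It lost the call with no filter on low values and without TF1-BA replicate 1, TF1-BA replicate 2 or TF1-BAR replicate 2, with adjusted p-values of 0.0611, 0.117, 0.0922 and 0.0652. SIRT1 made up 27.2% and 25.6% of the summed sirtuin FPKM in TF1-BA cells and 19.8% and 16.4% in TF1-BAR cells.

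The remaining sirtuins did not pass the test. SIRT6, a nuclear enzyme of telomeric chromatin and DNA repair, was at 5.31 and 5.43 FPKM in TF1-BA cells and at 4.67 FPKM in both TF1-BAR libraries, with an adjusted p of 0.144. SIRT7, found in the nucleolus, was at 2.18 and 2.24 against 1.87 and 1.97 FPKM, with an adjusted p of 0.292. Both had separate lines. The cytoplasmic SIRT2 was at 6.46 to 7.34 FPKM over the 4 libraries. The mitochondrial enzymes SIRT3 and SIRT5 were at 3.16 to 3.61 and at 3.84 to 4.63 FPKM, with log2 fold changes of 0.09 and −0.04. SIRT3 also had separate lines, with the TF1-BAR libraries higher (adjusted p = 0.497, limma). SIRT4, also mitochondrial, rested on 12, 19, 10 and 17 fragments, and its interval ran from −0.79 to 0.61.

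The difference of SIRT1 lay in a region where most genes were lower in TF1-BAR cells. On chromosome 10 the median log2 fold change of 593 genes tested was −0.35, the lowest of any autosome, and SIRT1 lay 0.34 below it. Within 1 Mb of SIRT1, 11 of 13 other genes tested had a negative log2 fold change, 7 of them with an adjusted p under 0.05, and the median was −0.44. The other member on chromosome 10, the acetyltransferase KAT6B, was at 2.53 and 2.78 FPKM in TF1-BA cells and 2.67 and 2.90 FPKM in TF1-BAR cells. Its log2 fold change of 0.06 (adjusted p = 0.708, limma) lay 0.40 above the chromosome median. Within 1 Mb of KAT6B, 9 of 11 other genes tested were lower, 5 of them called, with a median of −0.12. RCOR1 lay on a chromosome with a median of 0.04 over 575 genes. Within 1 Mb of it 23 of 33 other genes were lower, 6 of them called, and 1 was called higher, with a median of −0.18. Chosen after its values were seen, the noncoding gene LINC02323, whose start lies at −0.0474 Mb from that of RCOR1, had a log2 fold change of −1.0 (adjusted p = 0.0282, limma). How the surroundings bear on either gene was not tested.

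Among the acetyltransferases 2 of 12 were called, both higher in TF1-BAR cells, a share of 16.7% beside 16.3% of all genes called higher. KAT2A (GCN5; ENSG00000108773, 42113108 to 42121358 on chromosome 17) is the catalytic subunit of the SAGA and ATAC coactivator complexes. It was at 17.5 and 18.2 FPKM in TF1-BA cells and at 24.8 and 27.2 FPKM in TF1-BAR cells. The lines were well apart, with a ratio of means of 1.46. KAT2A rose by 0.53 on the log2 scale (SE 0.0753, 95% interval 0.33 to 0.72, adjusted p = 0.0122, limma), and 10.7% of its exon bases overlap another annotated gene. The call was lost without TF1-BA replicate 1, TF1-BA replicate 2 or TF1-BAR replicate 2, with adjusted p-values of 0.104, 0.0961 and 0.0506. Its paralog KAT2B was at 1.39 and 1.31 against 1.45 and 1.71 FPKM (adjusted p = 0.382). KAT2A was thus 12.6 and 13.9 times the level of KAT2B in TF1-BA cells and 17.1 and 15.9 times in TF1-BAR cells. The third enzyme of the family, HAT1, which acetylates newly made histones, was at 15.8, 16.5, 14.6 and 14.8 FPKM. Its share of the family's summed FPKM was 45.6% and 45.9% in TF1-BA cells and 35.7% and 33.9% in TF1-BAR cells, while its own log2 fold change of −0.13 did not pass the test (adjusted p = 0.201).

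CREBBP (ENSG00000005339, 3725054 to 3880726 on chromosome 16) and EP300 are closely related coactivators that acetylate histones at enhancers. CREBBP was at 5.82 and 5.93 FPKM in TF1-BA cells and at 7.32 and 8.76 FPKM in TF1-BAR cells. It rose by 0.42 on the log2 scale (SE 0.107, 95% interval 0.14 to 0.69, adjusted p = 0.0457, limma), with the TF1-BAR libraries separate from, and more spread than, the TF1-BA libraries. The call was lost in 7 of the 15 alternatives, upper-quartile scaling (adjusted p = 0.0505) among them, and the highest adjusted p was 0.212, without TF1-BA replicate 1. EP300 was at 8.65 and 8.67 against 9.56 and 10.4 FPKM, also separate, with a log2 fold change of 0.19 and an adjusted p of 0.132. On the FPKM scale EP300 remained above CREBBP in each library, by 1.49 and 1.46 times in TF1-BA cells and 1.31 and 1.19 times in TF1-BAR cells. In recovered fragments the log2 ratio of EP300 to CREBBP was 0.26 and 0.24 in TF1-BA cells. In TF1-BAR cells it was 0.08 and −0.06, so CREBBP had more fragments in TF1-BAR replicate 2.

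None of the 5 MYST acetyltransferases passed the test in limma, and 0 had an unadjusted p under 0.05, where 26.9% and 42.2% of all genes did. KAT8, the enzyme of the MSL and NSL complexes, was the highest of them at 9.74 to 11.1 FPKM, followed by KAT7 (HBO1) at 7.14 to 7.65 FPKM. KAT6A (MOZ), a partner in leukaemic fusions, was at 5.17 and 5.15 against 5.69 and 5.77 FPKM, a small and separate difference with an adjusted p of 0.233. KAT5 (TIP60) was at 3.0, 3.27, 3.03 and 2.43 FPKM, and 38.6% of its exon bases overlap another gene, RNASEH2C on the opposite strand. The coactivators of nuclear receptors NCOA1 and NCOA2 were at 6.24 to 7.01 and 4.15 to 5.17 FPKM, with log2 fold changes of −0.04 and 0.17. The signs of the small log2 fold changes of KAT6B, KAT7, NCOA1, SIN3A and SIRT5 changed with the scaling of the libraries.

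Of the 9 classical deacetylases tested, limma on the FPKM as deposited called HDAC5, higher in TF1-BAR cells, beside 16.3% of all genes. Rescaling to TPM also called HDAC1 (adjusted p = 0.0409), and voom on the recovered fragments also called HDAC7 (adjusted p = 0.0395). HDAC5 (ENSG00000108840, 44076746 to 44123702 on chromosome 17) is a class IIa enzyme that shuttles between nucleus and cytoplasm and represses MEF2 factors. It was at 2.75 and 3.0 FPKM in TF1-BA cells and at 4.11 and 5.09 FPKM in TF1-BAR cells, from 378, 353, 493 and 623 fragments. The lines were separate, with means of 2.87 ± 0.174 and 4.60 ± 0.694 FPKM (SD, n = 2 each). HDAC5 rose by 0.59 on the log2 scale (SE 0.127, 95% interval 0.26 to 0.92, adjusted p = 0.0303, limma). It lost the call with no filter on low values (0.0950) and without TF1-BA replicate 1 (0.170), TF1-BA replicate 2 (0.134) or TF1-BAR replicate 2 (0.0967), all as adjusted p. Of its exon bases 24.0% overlap G6PC3 on the opposite strand. The strand setting of the libraries is not given in the sources used here, so reads of overlapping genes cannot be told apart.

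HDAC7, the class IIa deacetylase of lymphoid and vascular cells, had the highest level of all members. It was at 101 FPKM in both TF1-BA libraries and at 85.8 and 92.1 FPKM in TF1-BAR cells, from 13424 to 18149 fragments. The lines were separate, but its log2 fold change of −0.19 had an adjusted p of 0.0827. HDAC7 made up 92.8% to 95.4% of the summed FPKM of the class IIa enzymes in each library. The share of HDAC5 was 2.59% and 2.81% in TF1-BA cells and 4.49% and 5.13% in TF1-BAR cells. HDAC4 was at 2.11 and 2.22 against 1.56 and 1.95 FPKM, lower in both TF1-BAR libraries with an adjusted p of 0.222. HDAC9 was under the filter, at 0.0384 to 0.0702 FPKM from 10 to 19 fragments.

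Of the 4 class I deacetylases, 0 were called by limma on the FPKM as deposited, 1 (HDAC1) had an unadjusted p under 0.05, beside the same 26.9% and 42.2% of all genes, and rescaling to TPM called HDAC1 with a log2 fold change of 0.25. HDAC1 and HDAC2 are the catalytic core of the NuRD, SIN3 and CoREST complexes. HDAC1 was at 36.4 and 34.9 FPKM in TF1-BA cells and at 40.8 and 40.0 FPKM in TF1-BAR cells, and HDAC2 at 20.9 and 19.8 against 23.4 and 21.6 FPKM. Both were separate, with log2 fold changes of 0.18 (adjusted p = 0.0917) and 0.14 (adjusted p = 0.223). HDAC1 lay 1.74 to 1.85 times above HDAC2 on the FPKM scale, which used exon lengths of 3963 and 15461 bases. In recovered fragments HDAC2 lay above HDAC1 in each library, with log2 ratios of HDAC1 to HDAC2 from −1.17 to −1.07. The order thus depends on the lengths used. HDAC3, the partner of NCOR1, was at 14.5, 15.4, 13.9 and 14.2 FPKM, and HDAC8 at 3.82, 3.63, 3.29 and 3.04 FPKM. Their log2 fold changes of −0.09 and −0.21 did not pass the test (adjusted p = 0.393 and 0.164). HDAC6, the tubulin deacetylase, was at 9.51 to 11.9 FPKM with overlapping lines. HDAC11, the class IV enzyme, was at 2.17 and 1.93 against 2.46 and 2.58 FPKM, with an adjusted p of 0.158. HDAC10 was under the filter at 0.101 to 0.276 FPKM, and 73.6% of its exon bases overlap other genes, MAPK12 among them.

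**Figure D3:**
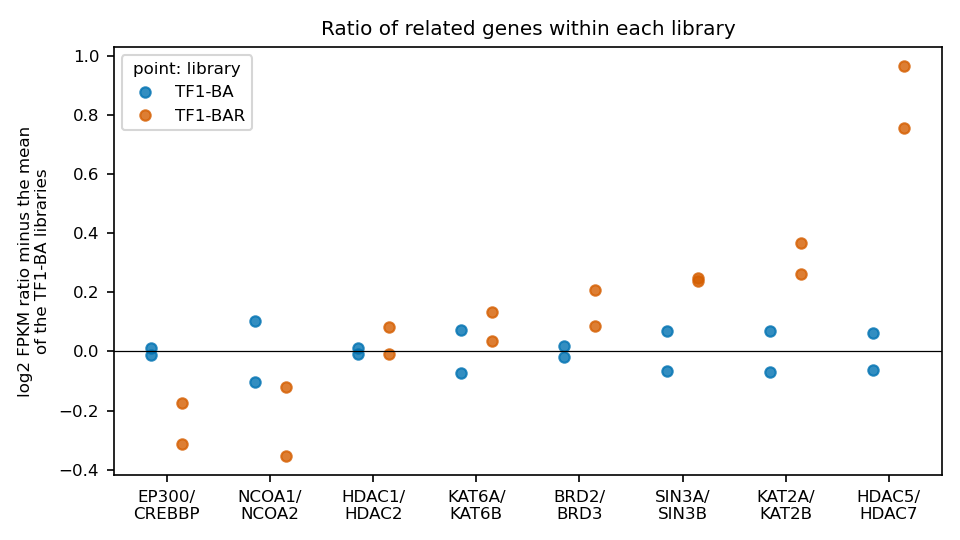
Log2 of the FPKM ratio of 8 pairs of related genes in each library, minus the mean of the TF1-BA libraries. The TF1-BAR points of HDAC5/HDAC7 lie farthest from 0, at 0.86 on average, those of EP300/CREBBP and NCOA1/NCOA2 lie at −0.24, and those of HDAC1/HDAC2 and KAT6A/KAT6B overlap the TF1-BA points.

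The balance within pairs of related enzymes was described without a test. The log2 ratio of HDAC5 to HDAC7 was −5.20 and −5.08 in TF1-BA cells and −4.39 and −4.18 in TF1-BAR cells, a difference of 0.86. The ratio of KAT2A to KAT2B was higher in TF1-BAR cells by 0.31, that of SIN3A to SIN3B by 0.24 and that of BRD2 to BRD3 by 0.15, all with separate libraries. Lower by 0.24 each (log2 differences of −0.24) were the ratios of EP300 to CREBBP and of NCOA1 to NCOA2. The ratios of HDAC1 to HDAC2 and of KAT6A to KAT6B overlapped, with differences of 0.04 and 0.08. HDAC4 and HDAC9 were not set against each other because HDAC9 was under the filter.

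In all 4 bromodomain genes tested the TF1-BAR libraries lay above the TF1-BA libraries, as they did in 40.9% of all genes tested, and 1 of the genes was called higher, beside 16.3% of all genes. BRD1 (ENSG00000100425, 49773283 to 49827512 on chromosome 22), the scaffold that joins KAT6A, KAT6B or KAT7 to chromatin, was at 6.25 and 6.22 FPKM in TF1-BA cells and at 8.04 and 8.32 FPKM in TF1-BAR cells. It rose by 0.36 on the log2 scale (SE 0.0740, 95% interval 0.17 to 0.56, adjusted p = 0.0267, limma). The call was lost without any 1 of the 4 libraries, with an adjusted p of up to 0.170, and with no filter on low values (0.0565). BRD2, a BET protein that reads acetylated histones at active genes, was the third highest member, at 35.2 and 35.7 against 40.7 and 45.3 FPKM (log2 fold change 0.27, adjusted p = 0.0544). BRD8, a subunit of the TIP60 complex, was at 6.25 and 6.79 against 7.94 and 8.20 FPKM (0.29, adjusted p = 0.0576). Both came under the threshold when only genes with a mean of at least 1 FPKM were tested, at 0.0466 and 0.0493. They did so too after rescaling to TPM (adjusted p = 0.0325 and 0.0349, limma) and in voom (adjusted p = 0.0125 and 0.0174). BRD3, another BET protein, was at 7.05 and 6.97 against 7.58 and 7.74 FPKM (adjusted p = 0.270), and 18.6% of its exon bases overlap BRD3OS on the opposite strand. The testis gene BRDT had 1 fragment in 2 of the libraries and 0 in the others.

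In the order of mean level over the 4 libraries, HDAC7 (95.1 FPKM) was followed by RCOR1 (57.1 FPKM), BRD2 (39.2 FPKM) and HDAC1 (38.0 FPKM), and then by SIN3B (23.2 FPKM), KAT2A (21.9 FPKM) and HDAC2 (21.4 FPKM). The lowest library of HDAC7 lay above the highest of RCOR1. RCOR1 lay above BRD2 and HDAC1 in both TF1-BA libraries and below them in both TF1-BAR libraries. BRD2 and HDAC1 overlapped over the 4 libraries. SIN3B lay above KAT2A in both TF1-BA libraries and below it in both TF1-BAR libraries, so their order differs between the lines. HDAC2 lay between them in each of the 4 libraries. These levels depend on the exon lengths used for each gene.

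Partner subunits and related genes were listed by known membership of the complexes. Of the 134 listed genes in the table that are no members, 130 were tested, of which 19 were higher and 7 lower by the adjusted p, together 26 genes, where 26.9% of all genes were called. Their median log2 fold change was 0.06, and 0 passed both thresholds in limma. After rescaling to TPM the counts were 27 higher and 3 lower. Without TF1-BA replicate 1 or without TF1-BA replicate 2 limma called 0 list genes, with 22 at an unadjusted p under 0.05 in each case, and without TF1-BAR replicate 2 2 were higher and 1 lower. The 12 genes named from these lists had separate lines. All 12 lost the call without TF1-BA replicate 1 and without TF1-BA replicate 2, where the spread came from the TF1-BAR libraries alone. Without TF1-BAR replicate 2, 9 of them lost it, all but OGT, RUVBL2 and ZMYND8, and without TF1-BAR replicate 1, SMARCA4 and TRRAP did. With no filter on low values 7 lost it (JADE2, KAT14, MTA3, NAMPT, SMARCA4, TRRAP and ZNF217), and without the trend NAMPT, SMARCA4 and ZNF217. The highest adjusted p was 0.162 for NAMPT, 0.174 for TRRAP and 0.180 for ZNF217.

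In the SAGA and ATAC complexes around KAT2A, 4 of 23 genes tested were higher and 0 lower. The 17.4% called lie near the 16.3% called higher among all genes, and the counts of the other complexes below, each of 0 to 4 genes, are likewise to be read against 16.3% higher and 10.5% lower. They included TRRAP, a large scaffold that is shared with the TIP60 complex (6.82 and 6.66 against 8.64 and 9.06 FPKM, adjusted p = 0.0269), and KAT14, an ATAC acetyltransferase (2.65 and 2.74 against 3.85 and 4.73 FPKM, adjusted p = 0.0284). KAT14 lies on chromosome 20, where the median log2 fold change of 440 genes was 0.39. In the NuA4-TIP60 complex around KAT5, 1 of 16 was higher, the same TRRAP, and 3 were lower. RUVBL2, an ATPase of several complexes, was at 77.7 and 76.9 FPKM in TF1-BA cells and at 58.6 and 55.4 FPKM in TF1-BAR cells and fell by 0.44 on the log2 scale (SE 0.0601, adjusted p = 0.0115, limma).

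Around KAT8, 3 of 11 genes of the MSL and NSL complexes were higher and 0 lower. The 27.3% called stand beside 16.3% of all genes called higher and 26.9% called in either direction. The largest difference of all lists was that of OGT, the transferase that adds N-acetylglucosamine to nuclear proteins. OGT was at 64.5 and 68.9 FPKM in TF1-BA cells and at 113 and 122 FPKM in TF1-BAR cells, and it rose by 0.81 on the log2 scale (SE 0.0702, adjusted p = 0.00563, limma). Without TF1-BA replicate 1 or 2 its adjusted p was 0.0615 and 0.0579. In the MOZ-HBO1 complexes 1 of 8 genes was higher, JADE2 (1.75 and 1.78 against 2.63 and 3.05 FPKM, adjusted p = 0.0277), and 0 were lower.

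Around the deacetylases, 2 of 12 NuRD genes and 2 of 12 SIN3 genes were higher and 0 lower. MTA3 was the NuRD gene with the largest difference (5.06 and 5.0 against 6.97 and 8.33 FPKM, adjusted p = 0.0240), and SAP30L that of the SIN3 complex (2.99 and 3.04 against 4.77 FPKM in both, adjusted p = 0.0122). Of 11 CoREST genes beside RCOR1, 0 were higher and 1 was lower, the zinc finger gene ZNF217 (20.1 and 19.6 against 16.0 and 14.0 FPKM, adjusted p = 0.0308). ZNF217 also lies on chromosome 20, where most genes were higher. RCOR1 thus fell by 0.98 while the other CoREST genes ran from −0.40 to 0.28 on the log2 scale. Of 4 NCoR-SMRT genes, 0 were called by limma on the FPKM as deposited, and 2 had an unadjusted p under 0.05.

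Among 28 further bromodomain genes tested, 4 were higher and 1 was lower, 17.9% called beside 26.9% of all genes. ZMYND8, a reader of acetylated histones on chromosome 20, was at 23.8 and 23.5 FPKM in TF1-BA cells and at 36.2 and 36.8 FPKM in TF1-BAR cells, and it rose by 0.61 (SE 0.0597, adjusted p = 0.00644, limma), above the chromosome median of 0.39. The remodelling ATPase SMARCA4 was at 23.8 and 22.9 against 19.9 and 19.2 FPKM, with an adjusted p of 0.0495, and it lost the call in 10 of the 15 alternatives, where the adjusted p reached 0.283. Of 11 genes of YEATS readers and of acetyl-CoA and NAD supply, 4 were higher and 2 lower, 54.5% called beside 26.9% of all genes. The YEATS reader MLLT3 was at 7.27 and 7.29 against 10.6 and 11.5 FPKM (adjusted p = 0.0117). NAMPT, which makes the NAD precursor that sirtuins depend on, was at 14.9 and 14.0 FPKM in TF1-BA cells and at 10.9 and 9.39 FPKM in TF1-BAR cells, and it fell by 0.49 on the log2 scale (SE 0.0982, adjusted p = 0.0258, limma).

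**Figure D4:**
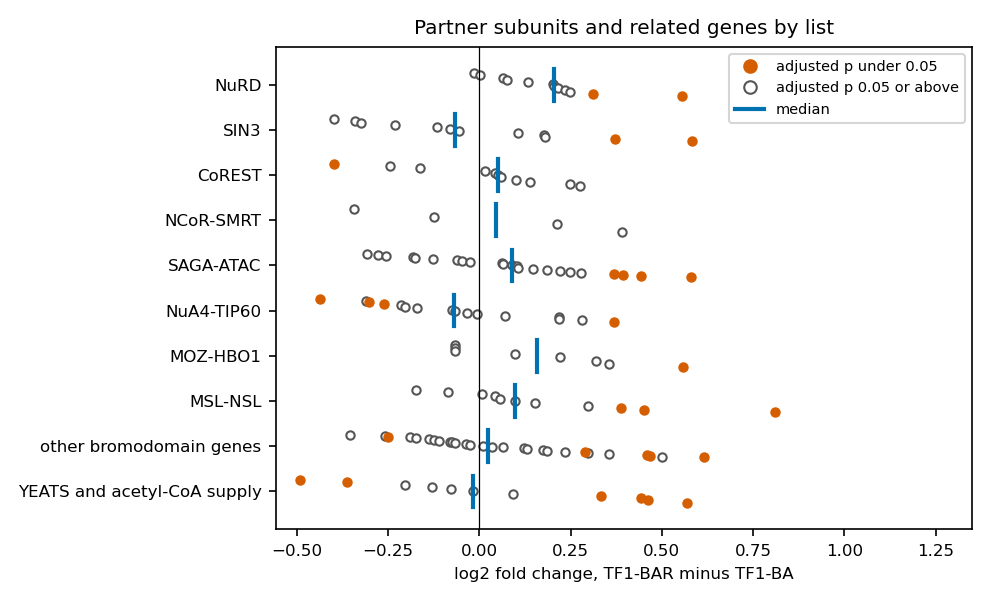
Log2 fold change (TF1-BAR minus TF1-BA) of the tested genes of each list, with orange points for an adjusted p under 0.05, open points otherwise and a blue line at the median of the list. OGT at 0.81 in the MSL-NSL list and NAMPT at −0.49 in the last list mark the ends of the range.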

How the data were processed

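RNA of 2 TF1-BA and 2 TF1-BAR libraries was analysed. The authors extracted total RNA with TRIzol, treated it with DNase, built libraries with the NEBNext Ultra kit and mapped the reads to GRCh38. The submitters' processing notes name TopHat2 2.0.13, Cufflinks 2.2.0 and Cuffdiff 2.2.0. The annotation release is not given in the sources used here. The deposited values are FPKM per gene and library, without log transformation, and columns were matched to samples by name.

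The main test was limma 3.58.1 under R 4.3.3, with lmFit and a trended eBayes on log2(FPKM + 0.5), two-sided, over genes with a mean of at least 0.5 FPKM, with Benjamini-Hochberg adjustment. Fold changes on this scale understate the change of low genes. Tables were made with pandas 2.3.3 in Python 3.11.15. The test was tried on simulated data, and its outcome there is not reported here. Since FPKM come from whole fragments scaled by exon length and library size, fragments were recovered as the smallest whole numbers that give all 4 values, of which the true number may be a multiple. Of 32673 genes, 14123 came out whole at an annotated exon length, 16720 at a fitted length and 10 not at all, while 1820 were at 0. Fragment numbers cover counting error only.

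The members and lists were chosen with earlier results of these data known. Named are all members and, for each list, the called gene with the largest log2 fold change in either direction. The alternatives were pseudocounts of 1 and 0.1 FPKM, a mean of at least 1 FPKM or no filter, upper-quartile, TPM and quantile scaling, eBayes without trend or robust, a replicate block, voom on recovered fragments, subtraction of the chromosome median, and leaving out each library.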

Additional observations from a re-analysis of the deposited data

How the results depend on the processing

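Of the 36 members tested, 4 were higher and 3 lower by the adjusted p. With no filter on low values these counts were 1 and 1, and those of the partner lists (19 and 7) were 7 and 1, as the share of all genes called went from 26.9% to 4.69%. Rescaling to TPM (29.0% of all genes called) gave 8 higher members and 3 lower list genes. Voom on recovered fragments (37.8%) gave 7 higher members and 30 higher and 16 lower list genes. Without the trend (19.9%), 11 list genes were higher and 1 was lower. Upper-quartile scaling put 1 lower member, RCOR1, past both thresholds. Leaving out 1 library at a time gave 0 to 4 higher and 0 to 2 lower members, and 0 to 16 higher and 0 to 8 lower list genes, where the spread of the line with 1 library left was taken from the other line.

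The sign of some uncalled members turned. KAT6B was at −0.0465 (log2) after quantile normalization, and TPM gave 0.0362 for KAT7, 0.0209 for NCOA1, 0.0467 for SIN3A and 0.02 for SIRT5. With 1 library left out, KAT6B ran from −0.0001 to 0.1155, KAT7 from −0.0764 to 0.0173, NCOA1 from −0.122 to 0.0345, SIN3A from −0.0473 to 0.0065, SIRT4 from −0.3517 to 0.1759 and SIRT5 from −0.1649 to 0.0788. The cause was not tested. Subtracting the chromosome median gave −0.0117 for KAT8, −0.0311 for SIRT2 and −0.0162 for SIRT3, which were above 0 before.

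With the replicate block, 6 members kept the call (4 higher, 2 lower) and SIN3B lost it (adjusted p = 0.0531, limma). The list counts were 19 and 5. Same-numbered libraries share only a number, and their deviations from the group means correlated at 0.0646 over 15519 genes. With 2 libraries a line, the spread rests mainly on the other genes of the fit.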
